A study of Mus musculus with 2 samples.

Results

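The histone genes analysed here are the 82 protein-coding genes whose symbols begin with a Hist cluster name, H2af, H3f3 or H1f, among 21901 protein-coding and 55536 annotated genes. They were chosen by symbol. Of these, 67 are clustered Hist genes and 15 are replacement genes (H2af, H3f3 and H1f symbols). Hippocampal tissue was taken from females of the B6CASTF1/J strain, a cross between C57BL/6J and CAST/EiJ, at an age of 14 days, and its RNA was sequenced as total RNA with reduced ribosomal RNA and ERCC spike-ins. There was 1 group of 2 libraries, biological replicates 1 and 2, each listing 3 females and 300 ng of RNA. Both libraries carry the same donor identifier. The source is labelled a layer of the hippocampus, without saying which. With no second condition, levels are descriptions, and the smallest exact two-sided sign-test p for 2 libraries would be 0.5, so no p-value is given.

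Histones H2A, H2B, H3 and H4 form the protein core around which DNA is wrapped, and H1 binds the DNA that links one core to the next. Clustered Hist genes are mostly without introns and are transcribed chiefly during DNA replication. Their messages end in a stem-loop that is bound by the protein Slbp, where most messages carry a poly(A) tail. Replacement genes usually have introns and polyadenylated messages, are read throughout the cell cycle, and supply histones to cells that no longer divide, such as neurons. Total RNA keeps messages of both kinds.

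Depth was 33465393 expected counts (estimated reads per gene) in replicate 1 and 32879872 in replicate 2. A floor of 3 counts equals 0.131 and 0.132 TPM (transcript share scaled to a fixed library total, corrected for length) at an effective length of 1 kb. Levels come from the first quantification, a deposited gene table of the RSEM layout, unless the second, of the kallisto layout, is named. The libraries differed beyond counting noise, with a chi-square of 17.5 per degree of freedom over 16135 genes. Choroid plexus markers summed to 1408 TPM in replicate 1 and 6.29 in replicate 2, ependymal markers to 17.5 and 8.37, and fibroblast and meningeal markers to 69.5 and 46.6. Dentate granule cell markers summed to 66.3 TPM in replicate 1 and 85.3 in replicate 2. CA1 and CA3 markers, which define hippocampal pyramidal neurons, were detected in both libraries (3 of 3 in each list), and no marker in any of these lists was at 0. In bulk tissue, fewer cells of a type and less RNA per cell cannot be told apart.

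The 3′ stem-loop marked most clustered genes in sequence and all but 1 replacement gene lacked it. It was searched in the annotated message as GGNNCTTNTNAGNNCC with a paired stem of 6 bases. A match was found in 46 of 67 clustered genes and in 1 of 15 replacement genes, against 0.251% of all protein-coding genes. Of the 21 clustered genes without a match, 17 have an annotated end within 25 bases of the stop codon, which leaves little annotated sequence that could hold one. The exception among replacement genes was H2afx, which encodes the H2A variant phosphorylated at DNA breaks. The sites below, taken from the GENCODE M21 transcripts, show the stem of each histone family in capitals with the loop and 5 flanking bases in lower case.
Hist1h1c: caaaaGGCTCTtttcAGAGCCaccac
Hist1h2ab: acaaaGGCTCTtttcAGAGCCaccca
Hist3h2ba: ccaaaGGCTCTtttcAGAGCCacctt
Hist1h3g: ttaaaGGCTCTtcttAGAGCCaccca
Hist1h4h: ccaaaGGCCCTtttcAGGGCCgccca
Hist1h4b: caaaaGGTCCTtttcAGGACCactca
H2afx: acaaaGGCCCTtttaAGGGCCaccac

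All 34 matched clustered H1, H2A, H2B and H3 genes carried the stem GGCTCT. None of the 12 matched H4 genes did: 10 carried GGCCCT and 2 carried GGTCCT. H2afx carried GGCCCT. The stem-loop lay within 100 bases of the annotated end in 23 clustered genes. In the other 23 the annotated message ran over 100 bases beyond it, as in the linker histone genes Hist1h1c (840 bases) and Hist1h1e (1153 bases). A polyadenylation signal (AATAAA or ATTAAA) lay in the last 50 bases of 14 of 67 clustered and 7 of 15 replacement genes, against 70.4% of all protein-coding genes. In 13 of the 14 clustered genes the stem-loop was present as well. The median level was 12.9 TPM where the annotation ended near the stem-loop and 9.62 TPM where it ran on.

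Promoters were read from RefSeq sequence on GRCm38.p6, from 250 bases before the start site to 50 after it, for 62 clustered and 14 replacement genes. CCAAT, the site of the factor NF-Y, occurred on either strand in 53 of 62 clustered and 10 of 14 replacement promoters, against 39.0% of all protein-coding promoters. Every clustered H1, H2A, H2B and H3 promoter held it, against 3 of 12 H4 promoters. The TATA sequence TATAAA occurred in 35 clustered promoters and 1 replacement promoter, against 13.3% of all. The octamer ATTTGCAT, bound by POU factors such as Oct-1, occurred in 13 clustered promoters, against 1.71% of all. It was found in 7 H2A and 6 H2B promoters and in no H1, H3 or H4 promoter. Windows of neighbouring H2A and H2B genes read in opposite directions can overlap, so 1 stretch of DNA can count in both promoters. Hist1h2ae and Hist1h2bg, for example, held the same octamer. Counts of all 3 sequences are thus not counts of separate stretches. The replacement promoter with TATAAA was that of H3f3b, which also held the octamer. Below, an H2A promoter with all 3 sequences stands beside that of H3f3b and that of Hist1h4h, the highest H4 gene, which held none of them; matches on either strand are in capitals.
Hist2h2ac, chr3:96220831-96221130, minus strand: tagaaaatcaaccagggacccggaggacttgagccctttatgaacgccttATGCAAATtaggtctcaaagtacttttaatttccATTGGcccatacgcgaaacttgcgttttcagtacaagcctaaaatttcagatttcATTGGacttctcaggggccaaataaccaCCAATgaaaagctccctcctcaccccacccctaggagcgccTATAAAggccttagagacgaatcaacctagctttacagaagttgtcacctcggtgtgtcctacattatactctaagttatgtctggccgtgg
H3f3b, chr11:116024455-116024754, minus strand: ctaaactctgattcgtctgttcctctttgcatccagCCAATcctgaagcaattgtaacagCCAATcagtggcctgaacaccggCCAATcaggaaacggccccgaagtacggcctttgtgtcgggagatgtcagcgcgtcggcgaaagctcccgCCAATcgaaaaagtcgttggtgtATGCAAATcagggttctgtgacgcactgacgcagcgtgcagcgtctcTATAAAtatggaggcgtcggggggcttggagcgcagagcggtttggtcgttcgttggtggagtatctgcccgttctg
Hist1h4h, chr13:23530794-23531093, plus strand: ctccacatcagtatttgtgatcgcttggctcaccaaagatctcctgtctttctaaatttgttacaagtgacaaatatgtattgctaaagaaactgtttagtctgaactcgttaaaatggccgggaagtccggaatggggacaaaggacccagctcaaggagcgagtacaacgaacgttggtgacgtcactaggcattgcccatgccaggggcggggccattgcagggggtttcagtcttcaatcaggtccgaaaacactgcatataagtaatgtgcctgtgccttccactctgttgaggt
The RefSeq start of H3f3b lies 3458 bases inside the gene as GENCODE draws it. A match is a description of letters in this window, not of binding.

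In the hippocampus, most histone genes were detected, the median replacement gene stood above the median clustered gene, and clustered genes held more of the summed TPM, though not of the counts in every case. Genes with 1 TPM or more in each library, here called detected, numbered 59 of 67 among clustered and 10 of 15 among replacement genes, against 58.8% of all protein-coding genes. The median level was 12.4 ± 1.65 TPM for clustered genes and 25.6 ± 0.0707 for replacement genes, against 3.63 TPM for all protein-coding genes (SD of the libraries' medians, n = 2). The replacement median is the level of H2afx in both libraries, so its small SD is that of 1 gene. Over the 10 detected replacement genes the median was 37.5 ± 2.44 TPM. Within each library, the clustered median was 0.513 ± 0.0629 times the replacement median. Summed, clustered genes reached 1601 and 1322 TPM in replicates 1 and 2, while replacement genes reached 627 and 664.5. Clustered genes thus held 69.2% ± 3.75 of the histone TPM, and all 82 genes together 0.448% ± 0.0269 of the TPM of protein-coding genes. The sum was concentrated: the 10 highest clustered genes held 49.7% of the clustered TPM in replicate 1 and 50.05% in replicate 2.

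The clustered share depended on how length enters the level. The median annotated length was 528 bases for clustered genes, against 1051 for replacement genes. Expected counts, which make no allowance for length, put 52.2% ± 3.63 of histone reads on clustered genes, with 54.8% in replicate 1 and 49.6% in replicate 2. In the second quantification the share was 62.0% ± 4.19 of TPM but 38.4% ± 3.11 of estimated counts, so that replacement genes held the larger part of those counts in both libraries.

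**Figure D1:**
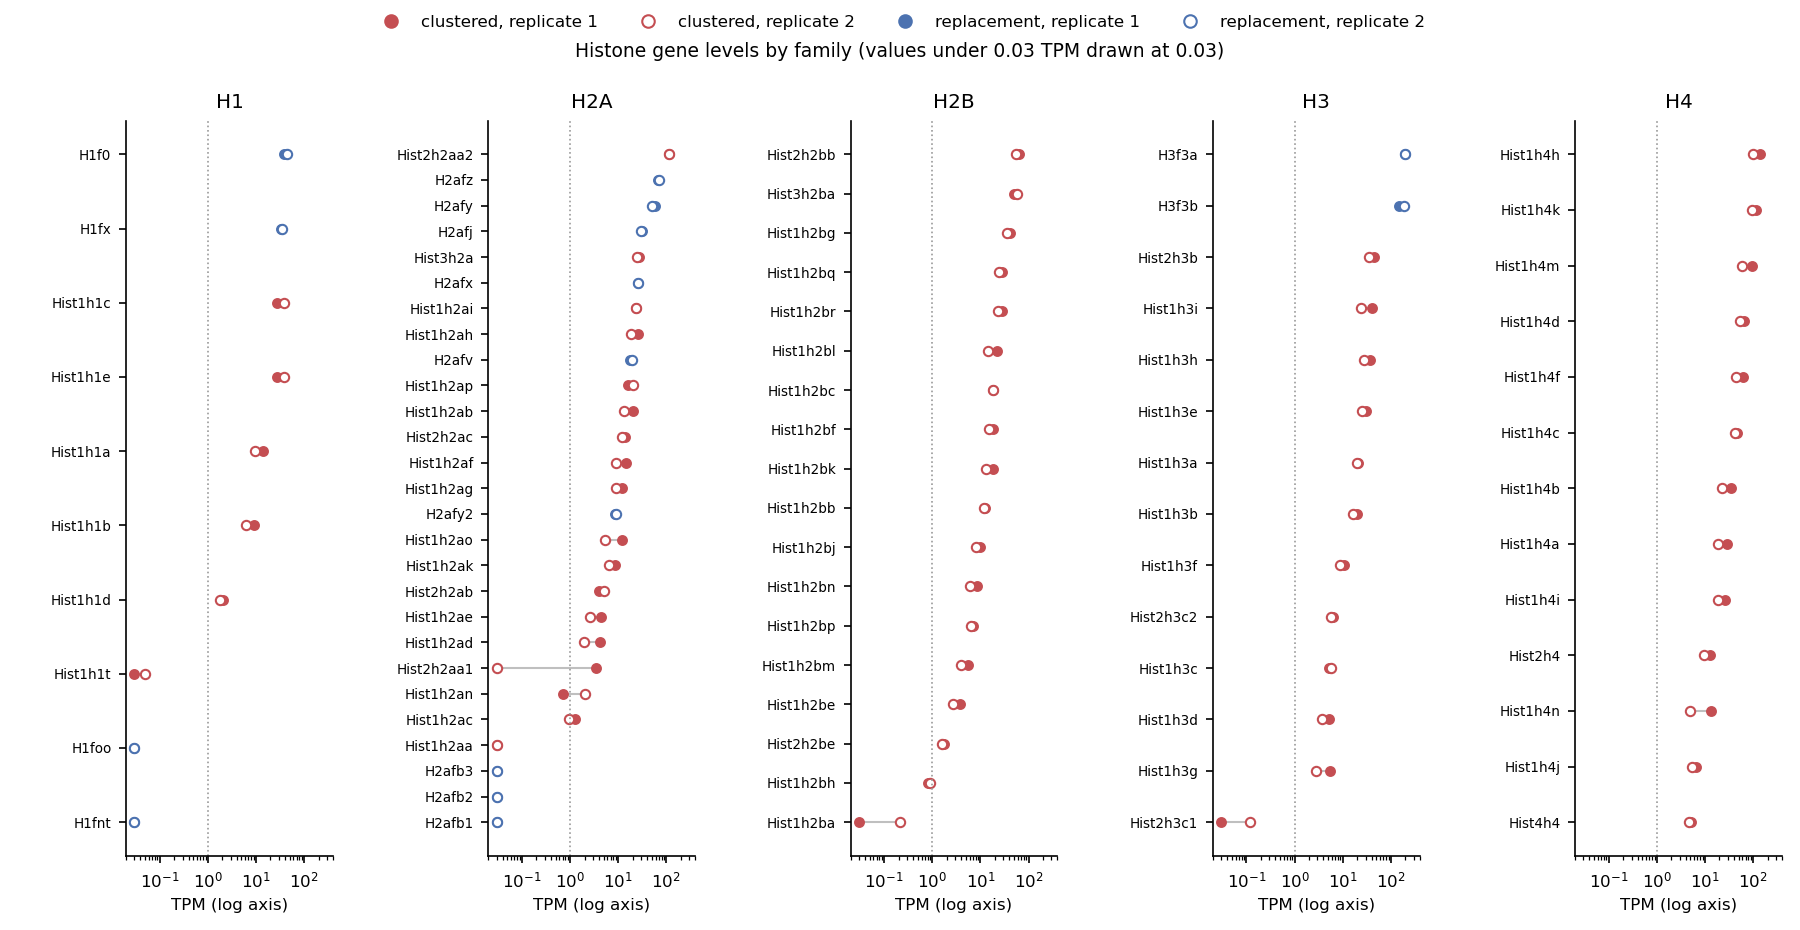
TPM of each of the 82 histone genes (log axis) in replicate 1 (filled) and replicate 2 (open), by family and ordered by mean; the dotted line marks 1 TPM. Replacement H3 genes stand above every clustered H3 gene, and the germline genes lie at or near 0.

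In H3, replacement genes held most of the gene-level TPM and counts in both quantifications. H3f3a, 1 of the 2 genes for the replacement histone H3.3 (chromosome 1, 180800832 to 180813943 on mm10), had 199 and 194 TPM in replicates 1 and 2 and ranked 321 among protein-coding genes. H3f3b, the other (chromosome 11, 116021912 to 116027962), had 147 and 189.6 TPM. Both stood above every clustered H3 gene in both libraries. Among clustered H3 genes, which encode the replication-coupled H3.1 and H3.2, Hist2h3b had 44.1 and 35.96 TPM. Hist1h3i had 40.5 and 24.5 TPM, Hist1h3h 36.6 and 28.4, and Hist1h3e 29.9 and 25.2. Neighbours in this order overlapped in range over the libraries, while Hist2h3b and Hist1h3e did not. The order below Hist2h3b is uncertain. Hist1h3b, with 19.7 and 16.1 TPM in the first quantification, had 63.3 and 52.3 in the second, above Hist1h3i with 40.2 and 24.1. Of 12 clustered H3 genes, 11 were detected. Hist2h3c1 had 0 and 0.12 TPM, but its sequence is contained in full in the annotated gene Gm20634, so its level is uncertain. The replacement genes held 64.6% ± 5.50 of summed H3 TPM, 67.9% in the second quantification, and 79.2% and 84.7% of counts in the first and the second. These are gene levels and include transcripts without a coding sequence, such as H3f3b-204 with 77.1 and 94.6 TPM in replicates 1 and 2.

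Replacement H2A genes held a smaller part of their family, at 41.7% ± 1.77 of summed H2A TPM and 37.2% ± 2.81 in the second quantification. By counts they held the larger part, 59.9% ± 1.37 in the first and 65.6% ± 1.98 in the second. Clustered Hist2h2aa2 was highest, with 116 TPM in replicate 1 and 115 in replicate 2. Its sequence is contained in full in the adjacent copy Hist2h2aa1 (3.47 and 0 TPM), so the copies are better read as a sum, 119 and 115 TPM in the first quantification and 230.1 and 221 TPM in the second. The sequence of Hist2h2aa1 is in turn contained in full in the annotated gene Gm20633, whose reads cannot be told apart from those of the copies. H2afz, encoding the H2A.Z variant found at gene starts (chromosome 3, 137864487 to 137866922), had 68.7 and 69.7 TPM, and its close relative H2afv had 17.2 and 19.8. H2afy and H2afy2, encoding the macroH2A variants with a large extra domain, had 57.9 and 49.8 TPM and 8.76 and 8.92 TPM. H2afj, encoding the variant H2A.J, had 31.3 and 29.1 TPM, and H2afx 25.7 and 25.6 TPM. After Hist2h2aa2, the clustered genes Hist3h2a (27.1 and 24.3 TPM), Hist1h2ai (23.9 and 23.4) and Hist1h2ah (26.1 and 18.7) followed in the first quantification. Hist1h2ah overlapped in range with both others, which did not overlap with each other. The order of these clustered genes is uncertain. Hist1h2ad, with 4.28 and 1.98 TPM in the first quantification, had 70.9 and 56.2 in the second, above Hist3h2a with 29.6 and 25.9. In the first quantification, the 6 detected replacement H2A genes ranked H2afz, H2afy, H2afj, H2afx, H2afv, H2afy2 in each library.

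H2B and H4 have no replacement gene among the members, so all of their message came from clustered genes. H4 summed to 648 TPM in replicate 1 and 482 in replicate 2, and H2B to 319.5 ± 28.9 TPM (SD, n = 2). All 13 H4 genes were detected. Hist1h4h (chromosome 13, 23531050 to 23531519) had 137 and 102 TPM, Hist1h4k 116 and 95.4, Hist1h4m 96.4 and 59.7, and Hist1h4d 64.6 and 53.2, each higher in replicate 1. The second quantification detected 10 of the 13, with an H4 median of 3.96 TPM against 28.7 in the first. It gave Hist1h4h 379 and 257 TPM, Hist1h4m 72.3 and 46.4, Hist1h4k 3.23 and 0, and Hist1h4d 1.06 and 0.359. The levels of Hist1h4k and Hist1h4d are thus uncertain. Of 18 H2B genes, 16 were detected. Hist2h2bb had 63.97 and 55.6 TPM, Hist3h2ba 50.9 and 58.04, Hist1h2bg 41.8 and 35.7, and Hist1h2bq 27.9 and 24.0. Hist2h2bb and Hist3h2ba overlapped in range, and the others did not overlap with them. The level of Hist1h2bq is uncertain: 98.3% of its 31-base words occur in other genes, the posterior SD of its count (doubt in how shared reads were divided) was 66.2% and 52.7% of the mean, and the second quantification gave it 0.53 and 0.41 TPM. Hist2h2bb and Hist2h3b share 100% of their 31-base words with the longer annotated gene Gm20628, so their reads cannot be told apart from those of that gene.

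Linker histone message was divided nearly equally by origin, with 53.9% ± 1.10 of summed H1 TPM on clustered genes. H1f0, encoding H1.0, the variant that accumulates in resting and differentiated cells, had 38.6 TPM in replicate 1 and 43.8 in replicate 2. H1fx, encoding the linker variant H1X, had 33.01 and 34.7 TPM. Among clustered genes, Hist1h1c had 28.04 and 38.5 TPM and Hist1h1e 27.6 and 38.4. Hist1h1a had 14.3 and 9.66 TPM and Hist1h1b 8.96 and 6.15. Hist1h1c and Hist1h1e stood above Hist1h1a and Hist1h1b in both libraries.

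Little or no message of the 8 germline genes was counted. By textbook knowledge, Hist1h1t, Hist1h2aa, Hist1h2ba and H1fnt belong to the testis, H1foo to the oocyte, and H2afb1, H2afb2 and H2afb3 mainly to the testis. None was detected in the first quantification. H1fnt, H1foo, Hist1h2aa and all 3 H2afb genes were at 0 in both libraries, which allows up to 3 counts in each. Hist1h2ba had 0 and 0.21 TPM, and 5.73 and 19.2 TPM in the second quantification. Without these 8 genes the medians were 14.2 TPM for clustered and 37.5 TPM for replacement genes.

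**Figure D2:**
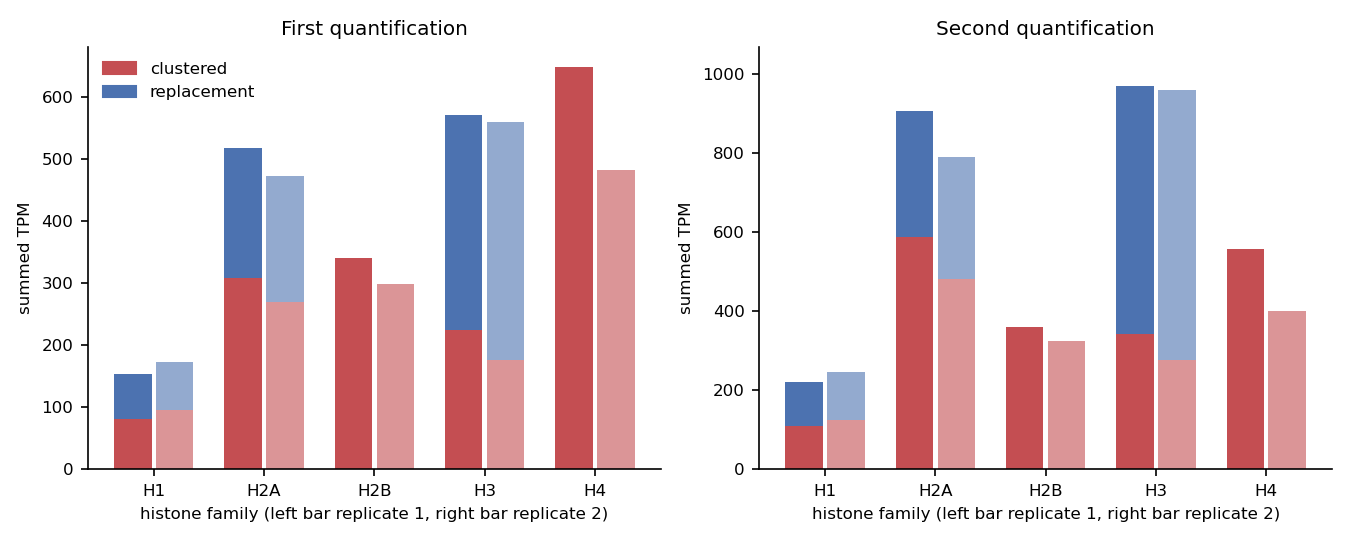
Summed TPM of clustered and replacement histone genes by family, in replicate 1 (left bar) and replicate 2 (right bar, paler), in the first quantification (left panel) and the second (right panel). H4 leads in replicate 1 of the first quantification with 648 TPM, whereas H3 leads in both libraries of the second.

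Genes that make, process and load histones, and replication genes, were mostly detected, against 58.8% of all protein-coding genes. The replication genes had the lowest median of these lists. Of 17 listed genes for histone message synthesis and 3′ processing, 16 were detected, with a median of 20.6 ± 2.67 TPM. The cap-binding cofactor Srrt had 81.95 TPM in replicate 1 and 59.9 in replicate 2. Lsm11, part of the U7 particle that recognises histone pre-mRNA, had 54.97 and 45.9 TPM. Zfp473, a U7-associated zinc finger protein, had 0.11 TPM in each. Slbp itself had 9.54 and 8.70 TPM; it stands outside the naming rule and was chosen because the stem-loop results turn on it. Of 25 histone chaperones and loading factors, 23 were detected, with a median of 30.3 ± 0.566 TPM. The highest were Nap1l5 (91.8 and 86.3 TPM), of the nucleosome assembly protein family, and Atrx (75.3 and 78.1 TPM), a remodeller that loads H3.3 with Daxx. The lowest was Asf1b, the chaperone isoform of dividing cells, with 0.47 and 0.59 TPM. Of 20 replication and proliferation genes, 17 were detected, with a median of 3.07 ± 0.184 TPM. Pcna, the replication clamp, had 22.4 and 19.8 TPM, Mcm7, of the replicative helicase, 9.24 and 10.2, and Cdc6, a helicase loader, 0.42 and 0.41. The median replication gene was near that of all protein-coding genes, and the median clustered histone gene stood above both.

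Between the replicates, clustered core histone genes leaned towards replicate 1 and most replacement genes towards replicate 2. Ratios of scaled counts (replicate 1 over replicate 2) could be formed for 60 clustered and 10 replacement genes past a filter on low counts. Of the 60 clustered genes, 48 were higher in replicate 1, against 47.4% of the 14717 genes past the filter, and the median log2 ratio was 0.20. Of the 10 replacement genes, 2 were higher in replicate 1, and the median log2 ratio was -0.13. Over all genes the median was -0.01, and 95% of genes lay between -0.49 and 0.61. A ratio of at least 1.5-fold upwards was reached by 7 clustered genes, against 2.74% of genes, and a ratio of 1.5-fold downwards by no member, against 1.45% of genes. With no filter on low counts, 8 of 76 members passed upwards and 4 downwards, against 4812 and 4313 of 28344 genes. Without that filter, members thus passed less often than genes at large. In the second quantification 10 and 2 of 59 members passed, against 501 and 263 of 16208 genes. Members share sequence, scaling and tissue, so they are not independent. Both medians kept their sign under the other scalings of library size that were tried.

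All 13 H4 genes were higher in replicate 1 in the first quantification, and their summed counts were 1.21-fold higher (95% counting interval 1.17 to 1.25). In the second, 12 of the 13 had the higher TPM in replicate 1, and Hist1h4a ran the other way, with 56.0 TPM in replicate 1 and 71.9 in replicate 2. The summed counts of clustered genes of all 4 core families were 1.13-fold higher (1.10 to 1.15), whereas those of H2B alone were 1.04-fold (0.988 to 1.09), which included 1. Clustered H1 ran the other way, with summed counts of 0.757-fold (0.720 to 0.796), through its most abundant genes. Hist1h1e was 1.49-fold lower in replicate 1 (1.38 to 1.61), Hist1h1c 1.47-fold lower (1.35 to 1.60) and H3f3b 1.44-fold lower (1.38 to 1.497). These were the 3 largest ratios in that direction, and all lay below the central 95% of genes. Hist1h1a and Hist1h1b, by contrast, were 1.38-fold (1.11 to 1.72) and 1.36-fold (1.03 to 1.796) higher in replicate 1. Intervals cover counting error only, since each side is 1 library.

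The 3 largest ratios towards replicate 1 belonged to copies that share their sequence. Hist1h4n had 101 and 36.6 expected counts and a log2 ratio of 1.33, Hist1h2ao 107 and 46.6 with 1.07, and Hist1h2ad 46.3 and 21.3 with 1.00. The posterior SD of the count was 37.0% and 52.5% of the mean for Hist1h4n in replicates 1 and 2. Summed with its near-identical copy, Hist1h4m and Hist1h4n together were 1.59-fold higher in replicate 1 (1.41 to 1.79), while Hist1h2ao and Hist1h2ap together were at 1.02-fold (0.849 to 1.23). Restricted to members with under 50% of their 31-base words in other genes, 1 of 31 members passed 1.5-fold, upwards, in place of 7 of 70. That is near the share over all genes past the filter, 2.74% upwards and 1.45% downwards, where no limit on shared words was set. The clustered median under this restriction was 0.18.

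Replication genes had a median log2 ratio of 0.09, with 10 of 18 higher in replicate 1 and none past 1.5-fold. Processing genes had a median of 0.02 and chaperones of -0.04. The whole choroid plexus list, 5 of 5 genes, was over 1.5-fold higher in replicate 1, as were both ependymal genes past the count filter and 1 of 4 fibroblast and meningeal genes, with all 4 higher. All 3 dentate granule cell markers were lower in replicate 1, 2 of them past 1.5-fold. Of 4 markers of neural progenitors and immature neurons, 2 were higher and 2 lower. Eomes, a marker of intermediate progenitors, had 1.35 TPM in replicate 1 and 2.88 in replicate 2, a log2 ratio of -1.21, the only one of the 4 past 1.5-fold. By scaled counts, all 3 oligodendrocyte precursor markers were lower in replicate 1, none past 1.5-fold. The part of these differences in tissue in the histone ratios was not tested.

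**Figure D3:**
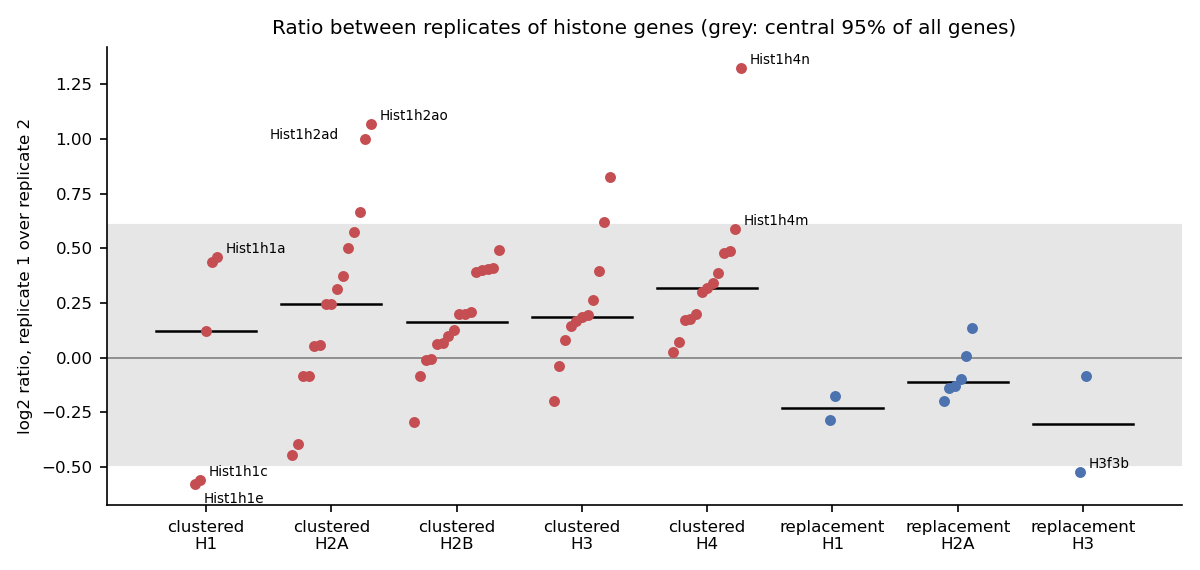
Log2 ratio of replicate 1 over replicate 2 for the 70 histone genes past the count filter, by origin and family; black lines are medians and the grey band spans the central 95% of all genes. All 13 H4 genes lie above 0, and Hist1h1c, Hist1h1e and H3f3b lie below the band.

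Many clustered genes had different levels in the quantifications. The median protein-coding gene had a lower TPM in the first quantification than in the second, by 0.64 on the log2 scale in each library, and gaps are given relative to it on log2(TPM + 0.1). Of 73 members detected in either, 21 were at least 2-fold higher in the first, against 0.589% of protein-coding genes, and 6 were at least 2-fold lower, against 2.37%. As deposited, without the median taken out, 12 were higher, against 0.371%, and 17 lower, against 10.2%. All but 1 of these 27 relative gaps were in clustered genes; the exception was H2afj. Detection was affected too, with 55 of 67 clustered and 10 of 15 replacement genes detected in the second quantification, against 62.6% of protein-coding genes.

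Among the families, H4 stood apart by counts as well as by TPM. The first quantification gave H4 genes 6976 and 5338 counts in replicates 1 and 2, against 1819 and 1290 in the second, a ratio of 3.84 and 4.14. The same ratio was 1.52 and 1.54 for H2B, 1.35 and 1.37 for clustered H3, and 1.26 and 1.33 for clustered H2A. It was 1.15 and 1.16 for clustered H1 and 0.967 and 0.968 for replacement genes. Clustered genes under 500 bases, H4 genes among them, were at 2.81 and 3.00, and longer clustered genes at 1.43 in each library. The part of length in the H4 gap was not tested. Of 13 H4 genes, 11 were at least 2-fold higher in the first quantification relative to the median gene. Hist1h4d had 1535 and 1258 counts in the first and 15 and 5 in the second. Of its words, 14.7% occur in other genes, and its posterior SD was 0.158% and 0.186% of the mean. Hist2h4, named after its values were seen, had 453 and 340.0 counts in the first and 63 and 35 in the second, with 2.56% of its words shared. Over the 13 H4 genes, the share of words found in other genes ran from 2.56% to 91.7%, and its part in the H4 gap was not tested. Hist1h4k had 563 and 462 counts in the first and 4.01 and 0 in the second, and Hist1h4f 411 and 300.4 against 2.01 and 0; 86.2% and 53.2% of their words are shared.

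The quantifications placed the reads of identical copies differently. The first placed 1138 and 1118 counts on Hist2h2aa2, and the second placed 1006 and 941 on Hist2h2aa1 and none on Hist2h2aa2. Their sums, 1176 and 1118 counts in the first and 1006 and 941 in the second, differed less. Sums of other near-identical copies differed widely. Hist1h2bq and Hist1h2br together had 382 and 322 counts in the first and 33.5 and 17.8 in the second, and Hist1h4m and Hist1h4n 769 and 448 against 152 and 93.2. Hist1h2ao had 107 and 46.6 counts in the first and 0 in the second. Of the clustered genes, 42 share at least 50% of their words with other genes, against 2 replacement genes, both of them H2afb genes at 0.

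**Figure D4:**
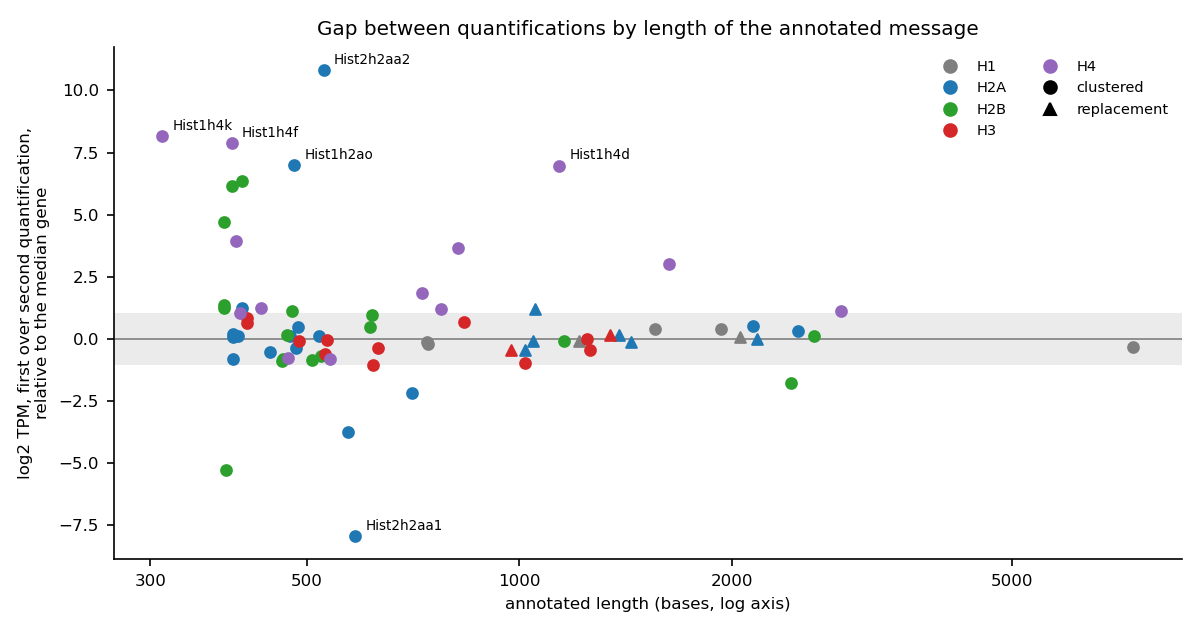
Gap between the quantifications (log2 of first over second TPM, mean of the libraries, relative to the median gene) against annotated length (log axis) for the 73 histone genes detected in either; the grey band marks 2-fold. Replacement genes (triangles) lie near 0 apart from H2afj, while H4 genes lie mostly above the band.

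The clustered genes lie in few blocks on the genome, and chromosome 13 held most of the genes and most of the message. With blocks separated by over 100 kb (mm10), chromosome 13 held 4 blocks of 18, 5, 29 and 2 of the 67 genes. Blocks of 10 or more genes held a share of the message near their share of the genes. The largest, 29 genes over 233 kb at 23531050 to 23764406, held 42.5% of clustered TPM in replicate 1 and 42.9% in replicate 2. The block of 18 genes over 122 kb at 21715763 to 21837530 held 29.9% and 27.3%. The last, of 2 germline genes, had 0 and 0.21 TPM. The Hist2 cluster on chromosome 3, with 10 genes over 50.3 kb, held 16.6% and 18.2%. The Hist3 pair on chromosome 11 had 78.01 and 82.4 TPM, and Hist4h4 on chromosome 6 had 5.22 and 4.63. The blocks of 10 or more genes mixed high and low genes side by side.

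**Figure D5:**
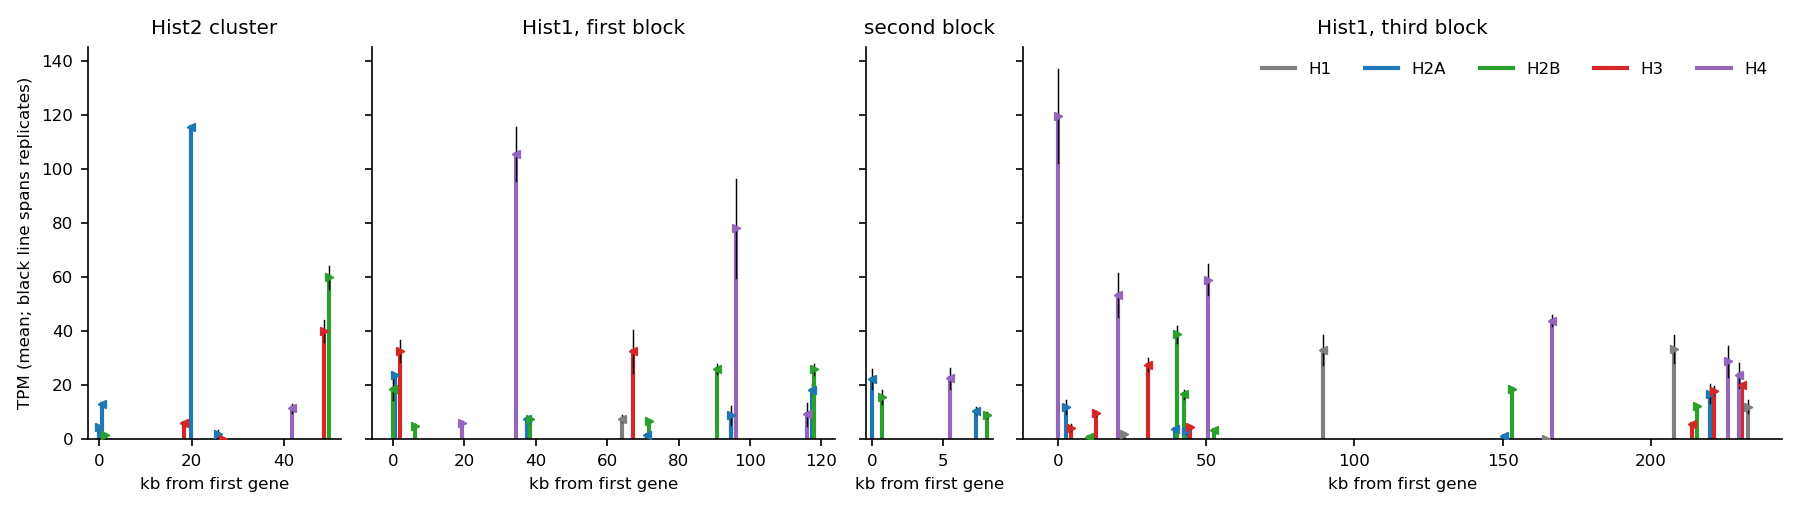
Mean TPM of clustered Hist genes against distance in kb from the first gene of each block, coloured by family; arrowheads point along the strand and black lines span the replicates. Hist1h4h, at the start of the block of 29 genes, and Hist2h2aa2 in the Hist2 cluster are among the highest.

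In the first quantification, some neighbouring H2A and H2B genes that share a promoter region had like levels and others unlike ones. There were 12 head-to-head pairs, with starts 176 to 306 bases apart. H2A was higher in both libraries in 4 pairs, H2B in 6, and the order was mixed in 2. In 3 pairs the genes were under 1.5-fold apart in both libraries. The closest of these was Hist1h2ak, with 8.65 and 6.37 TPM, beside 8.69 and 6.09 TPM for Hist1h2bn. At the other end, Hist1h2bc had 18.5 and 18.3 TPM beside 1.25 and 0.97 TPM for its partner Hist1h2ac. Hist2h2ac had 13.6 and 12.2 TPM beside 1.72 and 1.61 TPM for Hist2h2be. The second quantification gave the same order in 7 of the 12 pairs, so the order of the rest is uncertain. It put Hist1h2ak at 24.0 and 17.6 TPM beside 4.65 and 4.11 TPM for Hist1h2bn, so the likeness of levels in that pair is uncertain too.

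Of the 15 replacement genes, 7 have several annotated transcripts and 8 have 1. The first quantification split H3f3a between H3f3a-201 (53.5% and 53.3% of the gene's TPM in replicates 1 and 2) and H3f3a-207 (37.5% and 37.7%). The second reversed their order, with 131 and 133 TPM on H3f3a-201 and 269 and 261 on H3f3a-207. H3f3b was split between H3f3b-204, annotated as a processed transcript without a coding sequence (52.5% and 49.9%), and the coding H3f3b-201 (42.1% and 46.6%). The second quantification gave H3f3b-201 no counts and placed 3787 and 5078 on H3f3b-202, so the choice of coding isoform was not settled. H2afz came mainly from H2afz-201 (91.0% and 95.2%). For H2afy, H2afy-201 had 33.2% and 26.8% and H2afy-204, a processed transcript, 29.4% and 28.9%. For H2afj, H2afj-202 had 62.2% and 62.6%, but the second quantification gave it 14.3 and 0 counts, against 509.9 and 475 on H2afj-201. H2afv-201 had 55.04% and 60.8% of the TPM of H2afv.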

How the data were processed

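Each library had a gene table and a transcript table in the layout of RSEM output and a second transcript table with the columns that kallisto writes, on mm10 and GENCODE M21 per the accompanying notes. The authors deposited expected counts, TPM, posterior count SDs, TPM credibility bounds (a signal column, level not stated) and percent of a gene's TPM per isoform, per the file headers; the second table gives estimated counts and TPM. The aligner, tool versions and strand setting were not given in the sources used here, so overlapping and antisense genes are uncertain.

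Members and lists were chosen with earlier results of these data known. Named genes were every replacement gene, the 4 highest clustered genes per family, the 3 largest replicate ratios in each direction, the 5 largest gaps between quantifications, and the 2 highest and the lowest gene of each pathway list; other genes, among them Hist1h4a, Eomes and those shown as copies or pairs, were named after their values were seen. Replicate ratios used rounded expected counts, TMM scaling (edgeR 4.0.16, R 4.3.3), a prior count of 0.5 and genes with 50 or more summed counts and a mean of 1 TPM or more. The ratio step was tested on simulated gene counts with known changes. Division of reads among copies was not simulated, so that test says nothing about it. Intervals are exact binomial. ERCC spike-ins, 0.430% and 0.423% of counts, stayed out of library sizes. Sequence sharing is the percent of 31-base words found in other genes' transcripts. RefSeq promoters were matched by gene identifier. Alternatives included DESeq2 1.42.0 size factors. Other software was matplotlib 3.10.9, pandas 2.3.3, scipy 1.17.1 and numpy 2.4.6 under Python 3.11.15. Spread between libraries covers animals and technique together.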

Additional observations from a re-analysis of the deposited data

Results flagged for a closer look

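Of 9 entries with histone symbols that are annotated as other than protein-coding, 4 had more than 3 counts in both libraries, the limit that a count of 0 allows; there were no control samples. The pseudogene Hist1h2al averaged 16.9 TPM, with 108 and 77.3 counts in replicates 1 and 2, and the second quantification listed it at 0. The pseudogene H3f3c averaged 7.94 TPM, with 57.6 and 55.3 counts, and was also listed at 0 in the second. Hist3h2bb-ps averaged 5.16 TPM and 34.7 and 38.2 TPM in replicates 1 and 2 of the second. H3f3aos, annotated antisense to H3f3a, averaged 0.43 TPM, with 28 and 27 counts. Reads of the pseudogenes cannot be told apart from those of their parent genes where the sequence is shared, and reads of H3f3aos cannot be told apart from those of H3f3a where strand was not used.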

How the results depend on the processing

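No paired analysis was possible because there is only 1 group. Of 79 alternatives, 47 stayed within the replicate spread, counting interval or 1.5 times the count, and 32 moved. Only the median log2 ratios could change sign, and none did. For the shares and the ratio of medians, leaving out a replicate or rescaling TPM could not have counted as moved. Those alternatives are among the 47 and say nothing about stability. The clustered median of 12.4 TPM was 28.1 after rescaling TPM over nuclear protein-coding genes, 7.19 as scaled counts per kb, 16.7 over detected members, 7.56 over members with under 50% shared words, and 14.2 without germline genes; leaving out replicate 1 or 2 gave 11.97 to 14.3. The replacement median of 25.6 TPM was 36.1 in the second quantification, 58.3 rescaled, 16.4 per kb, 37.5 over detected members or without germline genes, and 30.2 with under 50% shared words. The clustered share of 69.2% was 62.0% in the second quantification 52.2% by counts with no length correction and 38.4% by counts of the second quantification, below an equal share, and 66.6% to 71.9% without a replicate. The ratio of medians was 0.379 in the second quantification 0.221 by counts and 0.116 by counts of the second. The replacement share of H3 was 79.2% and 84.7% by counts of the first and second; that of H2A was 37.2% in the second quantification, 44.8% per kb, and 59.9% and 65.6% by counts of the first and second, above an equal share. The clustered median log2 ratio of 0.20 was 0.29 with total counts, 0.26 with spike-in totals and 0.25 in the second quantification; the replacement median of -0.13 was -0.048 with total counts and -0.072 with spike-in totals. Members over 1.5-fold apart numbered 12 of 76 without a filter on low counts (8 higher and 4 lower in replicate 1). Over all genes, 4812 of 28344 were higher and 4313 lower. In the second quantification they numbered 12 of 59 (10 and 2), against 501 and 263 of 16208 genes. With under 50% shared words the number was 1 of 31. This limit was applied here after seeing the data, as was leaving out germline genes. So were counts of the second quantification and the alternatives for gaps between quantifications (23 to 29 against 27). The causes were not tested. No ratio is given for the 12 members that did not pass the filter on counts and mean TPM, among them the 8 germline genes.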
